A study of Mus musculus with 22 samples.

Results

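The germ cells of the embryonic mouse ovary stop dividing by mitosis and enter meiosis between E12.5 and E14.5, and their RNA was followed over that step in embryos with intact Tet1. The 4 libraries of female Tet1-WT germ cells were taken by their labels, 2 at E14.5 and 2 at E12.5, of 22 libraries in the series, and every gene with enough counts was compared between the stages. The series asked what loss of Tet1, an enzyme that oxidises methylated cytosine, does to RNA of primordial germ cells (PGCs), and the Tet1-WT embryos served as its controls. At E14.5 and at E12.5 alike, the embryos were females of genotype Tet1-WT from a cross of Tet1-het GOF18∆PE-EGFP parents, so both stages share the cross and the transgene. GOF18∆PE-EGFP is a green fluorescent reporter driven by Pou5f1 sequences without the proximal enhancer, active in germ cells, and the labels describe the RNA as coming from sorted PGCs. Each library held RNA pooled from 2 to 6 embryos of 1 stage and sex. Female Tet1-KO and male Tet1-WT germ cells of the same cross, at E14.5 and at E12.5 with 2 libraries in each group, are used beside them to see where the female Tet1-WT change differed.

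Meiosis is the pair of divisions that reduces the chromosome number in germ cells. In the fetal ovary, retinoic acid and BMP signals act on germ cells that express the RNA-binding protein DAZL, and induce STRA8 and its partner MEIOSIN, transcription factors that switch on many genes of meiotic prophase. Chromosomes then build a protein axis of cohesin and HORMA domain proteins, break and repair their DNA by recombination, tether their telomeres to the nuclear envelope and pair along the synaptonemal complex. Male germ cells of the same age are held out of meiosis and arrest before DNA replication. Many germ cell genes carry CpG-rich promoters that are methylated in somatic cells and lose this methylation in PGCs.

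Promoters of 5 genes that rose are printed to show which short sequences stood near the start sites of this programme. They run from 250 bases before to 50 bases after the annotated start, from RefSeq on GRCm38.p6, in the direction of transcription. Capitals mark the E-box CACGTG, the sequence CNCCTCAG and the hormone receptor half-site AGGTCA, searched on both strands, and no match of 1 motif overlapped another in these windows. The 5 were chosen after motif matches and expression values were known. Stra8, the trigger of meiotic entry, is on chromosome 6 at chr6:34920698-34920997, plus strand, and held 2 AGGTCA matches.
Stra8: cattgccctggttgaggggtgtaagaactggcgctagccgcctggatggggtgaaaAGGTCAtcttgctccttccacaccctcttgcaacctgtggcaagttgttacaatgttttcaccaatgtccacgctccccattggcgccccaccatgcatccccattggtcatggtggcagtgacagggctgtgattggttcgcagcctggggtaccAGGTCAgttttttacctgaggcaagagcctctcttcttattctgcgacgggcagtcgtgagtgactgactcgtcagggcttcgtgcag
Bhmg1 is RefSeq's symbol for the gene listed in the counts as Gm4969, which encodes MEIOSIN, and its window at chr7:19118295-19118594, minus strand, held 1 CACGTG and 1 CNCCTCAG.
Bhmg1: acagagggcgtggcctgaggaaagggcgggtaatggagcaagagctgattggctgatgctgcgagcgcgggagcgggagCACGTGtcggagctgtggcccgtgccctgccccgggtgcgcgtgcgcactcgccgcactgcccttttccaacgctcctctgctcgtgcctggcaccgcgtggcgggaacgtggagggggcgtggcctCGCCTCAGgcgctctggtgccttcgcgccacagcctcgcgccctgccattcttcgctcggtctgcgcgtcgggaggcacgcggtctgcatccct
Sycp3, a component of the chromosome axis, had 2 CACGTG and 1 AGGTCA at chr10:88459337-88459636, plus strand.
Sycp3: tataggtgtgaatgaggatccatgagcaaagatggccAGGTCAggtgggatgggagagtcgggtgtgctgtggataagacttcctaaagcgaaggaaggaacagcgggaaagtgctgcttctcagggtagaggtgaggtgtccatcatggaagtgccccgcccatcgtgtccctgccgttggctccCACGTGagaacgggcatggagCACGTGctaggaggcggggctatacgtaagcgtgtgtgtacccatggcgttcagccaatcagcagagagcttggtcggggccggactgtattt
Hormad1, which marks unpaired axes, likewise had 2 CACGTG and 1 AGGTCA at chr3:95559427-95559726, plus strand.
Hormad1: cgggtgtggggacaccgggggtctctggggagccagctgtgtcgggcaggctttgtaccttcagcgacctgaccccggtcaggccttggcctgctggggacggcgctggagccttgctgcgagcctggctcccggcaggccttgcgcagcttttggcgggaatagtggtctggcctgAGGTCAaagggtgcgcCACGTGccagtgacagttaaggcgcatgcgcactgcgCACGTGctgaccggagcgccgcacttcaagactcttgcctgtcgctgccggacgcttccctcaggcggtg
Tex12, a protein of the central element of the synaptonemal complex, had 1 CACGTG and 1 CNCCTCAG at chr9:50561219-50561518, minus strand.
Tex12: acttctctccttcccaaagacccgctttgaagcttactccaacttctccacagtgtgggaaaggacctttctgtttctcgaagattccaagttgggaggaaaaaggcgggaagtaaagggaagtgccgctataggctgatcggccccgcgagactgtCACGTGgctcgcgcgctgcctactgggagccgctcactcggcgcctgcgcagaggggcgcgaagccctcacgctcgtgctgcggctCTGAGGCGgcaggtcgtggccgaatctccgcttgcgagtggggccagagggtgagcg

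Across the windows that could be matched by symbol, CACGTG stood in 8 of 35 genes (22.9%) of the meiotic prophase lists that rose. It stood in 10 of 21 rising genes (47.6%) of a list of germline genes whose promoters are sensitive to methylation, and in 0 of 14 falling pluripotency genes. Among all genes tested the share was 9.8%, among all that rose 9.88%, and among all that fell 11.8%. CNCCTCAG was in 22.9% of the rising meiotic prophase genes, in 14.6% of all rising genes, in 5.67% of all falling genes and in 9.21% of all genes tested. AGGTCA was in 20% of the rising meiotic prophase genes, in 14.3% of the rising methylation-sensitive genes, in 28.6% of the falling pluripotency genes (4 of 14), in 11.2% of all rising genes and in 12.8% of all falling genes. These shares are descriptions of letters in a window and were not tested.

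The libraries held 21.1 M and 9.62 M counts at E14.5, against 16.32 M and 18.55 M counts at E12.5, so the second E14.5 library was the shallowest of the 4. The germ cell markers Dazl and Ddx4 were high at both stages, and Mael rose. Other germ cell markers, Pou5f1, Dppa3, Kit, Nanos3 and Dnd1, fell. Dnd1 had group means of 42.1 CPM at E14.5 against 151 CPM at E12.5, and values for the rest are given below. Dazl had 3835 and 3137 CPM (counts scaled to a common library total) in the E14.5 libraries, against 2067 and 1164 CPM in the E12.5 libraries, and Ddx4, an RNA helicase of germ cells, had 1054 and 992 CPM at E14.5 against 655 and 648 CPM at E12.5. Neither difference was called (adjusted p = 0.056 and 0.19), but both were without the filter on low counts (adjusted p = 5.9e-09 and 0.0044) and with the 4 libraries alone (0.028 and 0.032). Dazl was also called under DESeq2 (adjusted p = 0.042) and with RLE size factors (0.047), with a log2 change of 1.15 in both. Without replicate 1 of E12.5 its change was 1.55. Y-linked Ddx3y and Kdm5d had 0 counts in all 4 libraries, Eif2s3y had 0 CPM at E14.5 against 0 and 0.0526 CPM at E12.5, and Uty had 0.0503 and 0.106 CPM at E14.5 against 0.236 and 0.0526 CPM at E12.5. Markers of mesenchyme, the connective tissue around the germ cells, summed to 55.0 and 62.0 CPM at E14.5, against 966 and 1235 CPM at E12.5. In sorted bulk cells, fewer cells of a type and less RNA per cell cannot be told apart. The labels give no sequencing batch or date, so stage and any batch between the stages cannot be told apart. Nothing says that the pools came from separate litters, so p-values measure only the spread between libraries of a group. That spread was estimated over all 20 libraries of the Tet1 cross, not over these 4 alone.

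Of 17567 genes tested, 1987 were called higher at E14.5 than at E12.5 (11.3%) and 2459 lower (14%), with edgeR's quasi-likelihood test at a Benjamini-Hochberg adjusted p under 0.05. The median change over all genes tested was -0.07 on the log2 scale, or -0.02 with genes at 0 in both libraries of a stage set to 3 counts per library there. The libraries of the stages did not overlap for 31.7% of the genes tested with the higher values at E14.5 and for 33.9% with the lower, so lack of overlap alone sets few genes apart. A gene is said to have risen or fallen only where it passed that test. Members named as exceptions to their list were chosen after their values were seen. Every change is a log2 ratio of E14.5 to E12.5 with its standard error (SE). The first E14.5 library was more extreme than the second. It stood above the second in 80.0% of the called rises, and the second stood above the first in 60.6% of the called falls. Without replicate 1 of E14.5 the number of calls fell to 2448, and without any other of the 4 libraries it was between 2992 and 3775.

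Most regulators of meiotic entry rose. Of 11 tested members of this list, 8 rose and 0 fell, with a median change of 2.01. Stra8 had 766 and 575 CPM in the E14.5 libraries, against 31.3 and 6.94 CPM in the E12.5 libraries, a change of 5.14 ± 0.69 (SE, adjusted p = 8.4e-05). Both E14.5 libraries stood far above both E12.5 libraries, although the E12.5 pair themselves differed several-fold. Gm4969, the MEIOSIN gene, had 178 and 139 CPM at E14.5 against 2.42 and 2.05 CPM at E12.5, a change of 6.15 ± 0.63 (adjusted p = 1.0e-05). Its level was low and even in the E12.5 libraries. Meioc, whose product works with the helicase YTHDC2 on germ cell RNAs, had 369 and 263 CPM at E14.5 against 14.49 and 3.58 CPM at E12.5 (5.13 ± 0.84, adjusted p = 3.3e-04). For Ythdc2 itself the values were 73.4 and 55.5 CPM at E14.5 and 21.5 and 10.46 CPM at E12.5, and its call was lost without replicate 2 of E12.5 (adjusted p = 0.21) or without replicate 1 of E14.5 (0.13). Not every regulator moved. Zglp1, a zinc finger factor of the ovarian germ cell fate, had 69.6 and 70.0 CPM at E14.5 against 94.3 and 76.5 CPM at E12.5 (adjusted p = 0.59). The BMP target Msx1 rose by 2.20, with adjusted p = 0.053 and 0.069 when replicate 1 or replicate 2 of E12.5 was left out, whereas Msx2 changed by -0.32 and was not called. Without replicate 2 of E12.5, or without replicate 1 of E14.5, the rises of this list numbered 4.

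All 8 genes of the meiotic chromosome axis rose, with a median change of 2.97. Sycp3 had 1457 and 1166 CPM at E14.5 against 79.7 and 56.3 CPM at E12.5, a change of 4.27 ± 0.26 (adjusted p = 6.9e-07). Its partner in the axis, Sycp2, had 426 and 302 CPM at E14.5 against 12.8 and 3.36 CPM at E12.5 (5.50 ± 0.72, adjusted p = 5.3e-05). No library of one stage came near those of the other for either gene. The cohesin subunits made for meiosis rose by very different amounts. Smc1b was already expressed at E12.5, with 4396 and 3657 CPM at E14.5 against 455 and 461 CPM at E12.5 (3.14 ± 0.27). Stag3 had 993 and 978 CPM at E14.5 against 212 and 238 CPM at E12.5 (2.13 ± 0.20). Rad21l, a meiotic kleisin, was close to absent at E12.5, with 105 and 80.7 CPM at E14.5 against 0.118 and 0 CPM at E12.5 (adjusted p = 4.4e-05). Rec8, the other meiotic kleisin, had 190.3 and 217 CPM at E14.5 against 31.5 and 27.1 CPM at E12.5 (2.80 ± 0.99, adjusted p = 0.049), but the call was lost with each single library left out (adjusted p from 0.11 to 0.21) and under DESeq2 (0.082). Hormad1 and Hormad2, HORMA domain proteins of the axis, rose by 2.70 and 2.53.

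The central region of the synaptonemal complex, the zipper between paired chromosomes, rose as a whole, with 6 of 6 members called higher and a median change of 3.25. Sycp1, the transverse filament, had 1128 and 935 CPM at E14.5 against 107 and 58.5 CPM at E12.5, a change of 3.64 ± 0.38 (adjusted p = 9.2e-06). Tex12 had 1020.3 and 655 CPM at E14.5 against 41.8 and 19.98 CPM at E12.5 (4.76 ± 0.59, adjusted p = 3.2e-05). Each of these had its lowest E14.5 library several-fold above its highest E12.5 library. The other central element genes Syce3 and Syce1 rose by 4.15 and 2.54. Syce2, with 846 and 754 CPM at E14.5 against 288 and 396 CPM at E12.5, moved least (1.23 ± 0.28) and missed the threshold without replicate 1 of E12.5 (adjusted p = 0.055).

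Genes that form and place DNA breaks rose in 6 of 10 tested members, with a median change of 2.38. Prdm9, the histone methyltransferase that places meiotic breaks, had 524 and 441 CPM at E14.5 against 9.60 and 11.99 CPM at E12.5 (5.48 ± 0.55, adjusted p = 7.6e-06). Zcwpw1, a reader of the marks made by PRDM9, had 1215 and 1174 CPM at E14.5 against 181 and 319 CPM at E12.5 (2.26 ± 0.35). Mei1, needed for break formation, went with them at 207 and 160.2 CPM at E14.5 against 1.47 and 3.84 CPM at E12.5 (6.10 ± 1.11). The enzyme that cuts the DNA was the exception among the well known genes. Spo11 had 53.9 and 42.7 CPM at E14.5 against 18.2 and 13.7 CPM at E12.5, without overlap, yet its change of 1.598 ± 1.13 was not called (adjusted p = 0.34). It was called with the 4 libraries fitted alone (adjusted p = 0.0054) and without the filter on low counts (0.011). Its accessory genes Rec114 and Mei4 changed by 1.36 and 1.92, also not called (adjusted p = 0.068 and 0.070). Both were called with the 4 libraries alone (0.0060 and 0.0074), without the filter (0.030 and 1.4e-05) and under DESeq2 (0.014 and 0.019).

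Of 24 recombination and crossover genes tested, 19 rose and 0 fell, with a median change of 2.22. The meiotic recombinase Dmc1 had 314 and 263 CPM at E14.5 against 18.7 and 28.0 CPM at E12.5 (3.62 ± 0.83, adjusted p = 0.0043). Brca2, which loads recombinases, had 255 and 232 CPM at E14.5 against 71.6 and 82.8 CPM at E12.5 (1.66 ± 0.24). The gap between the stages was thus wide for Dmc1 and narrower for Brca2. Meiob, a single-strand DNA-binding protein of meiosis, had 304 and 221 CPM at E14.5 against 5.30 and 3.10 CPM at E12.5 (5.97 ± 1.16), and Tex15, a germ cell protein required for synapsis and break repair in males, had 1582 and 1249 CPM at E14.5 against 64.8 and 31.6 CPM at E12.5 (4.88 ± 0.43). Genes that later stabilise crossovers had risen as well. Msh5 had 112 and 112 CPM at E14.5 against 4.89 and 3.21 CPM at E12.5 (4.79 ± 0.55), and the helicase gene Hfm1 had 497 and 421 CPM at E14.5 against 39.1 and 38.1 CPM at E12.5 (3.57 ± 0.35). Mlh3, which acts at mature crossovers, changed by -0.12 and was not called. Psmc3ip, a partner of the recombinases, also stayed within its spread, with 68.1 and 65.7 CPM at E14.5 against 67.4 and 92.5 CPM at E12.5.

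Telomere attachment genes rose in 6 of 9 tested members. Terb1 and Majin encode parts of the complex that holds telomeres to the inner nuclear membrane. Terb1 had 129 and 107 CPM at E14.5 against 1.12 and 1.10 CPM at E12.5 (6.72 ± 0.56, adjusted p = 2.1e-06), and Majin had 121 and 102.3 CPM at E14.5 against 1.83 and 1.37 CPM at E12.5 (6.12 ± 0.83). Spdya, an activator of CDK2 at telomeres, had 214 and 167 CPM at E14.5 against 0.884 and 4.42 CPM at E12.5 (6.15 ± 0.94). Both E12.5 libraries held these 3 genes at a few CPM, far below both E14.5 libraries. The general telomere protein Terf1 had 270.0 and 230.5 CPM at E14.5 against 265 and 227 CPM at E12.5, and Cdk2 had 56.8 and 59.8 CPM at E14.5 against 46.0 and 48.9 CPM at E12.5, neither of them called. Joined into 1 set of 56 tested genes, the 5 lists of axis, synaptonemal complex, break, recombination and telomere genes held 44 rises and 0 falls, with a median change of 2.54.

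**Figure D1:**
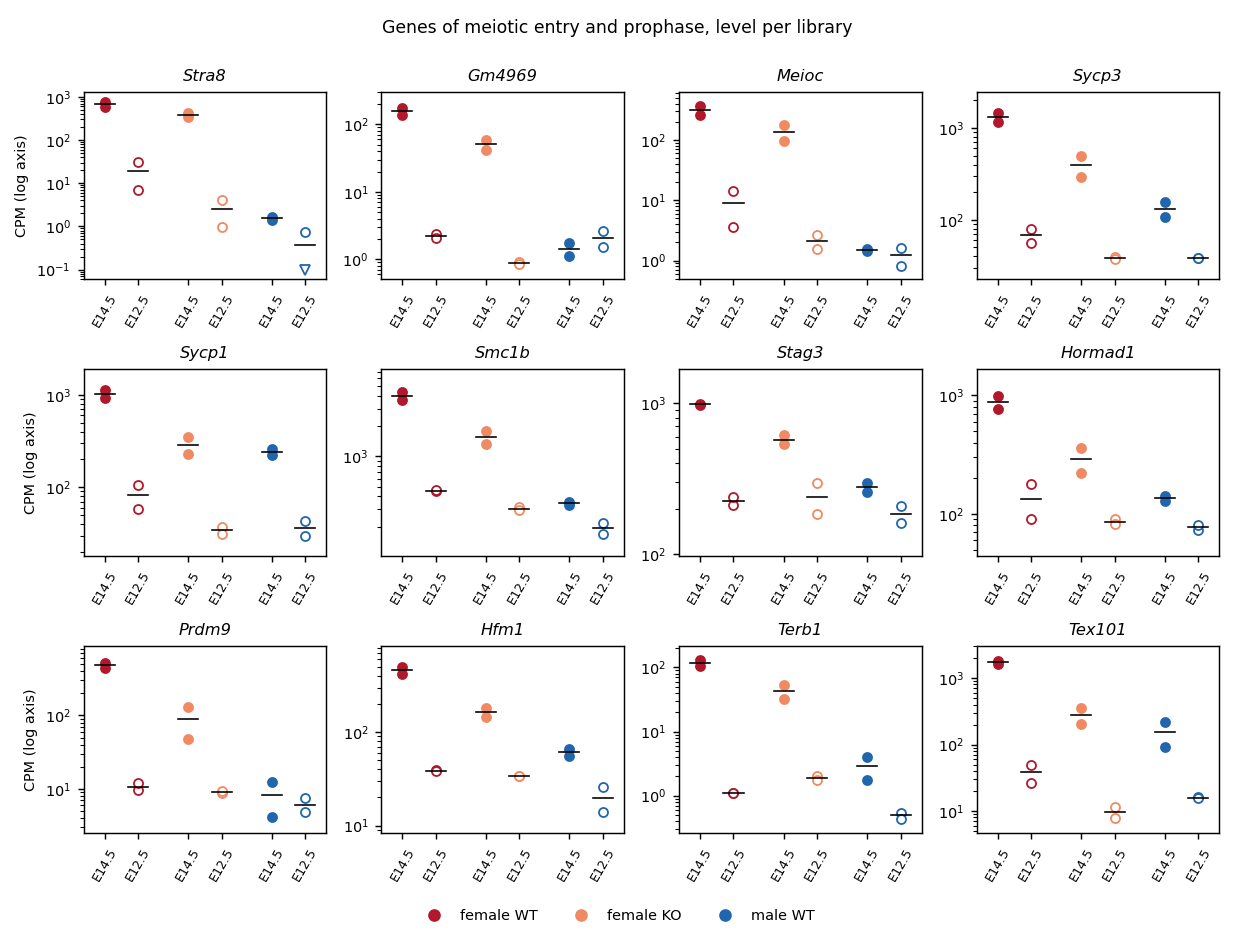
Level of 12 genes of meiotic entry and prophase in each library, in CPM on a log axis that differs between panels; filled points are E14.5, open points E12.5, black lines group means, and a downward triangle marks a library below 0.1 CPM. In female WT germ cells every E14.5 library stands above every E12.5 library, as for Terb1 with 129 and 107 CPM at E14.5 and 1.12 and 1.10 CPM at E12.5.

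The somatic relatives of these meiotic proteins did not move as a block. Of 10 tested, 3 rose and 4 fell, with a median of -0.10. Rad21, the kleisin of mitotic cohesin, had 46.8 and 65.7 CPM at E14.5 against 256 and 258 CPM at E12.5 (-2.20 ± 0.19, adjusted p = 2.1e-06), while the meiotic kleisin Rad21l was high at E14.5. Smc1a, which SMC1B can replace, fell by 0.95 ± 0.16, with 118 and 138 CPM at E14.5 against 227 and 268 CPM at E12.5. The cohesin loader gene Nipbl rose, with 302 and 299.9 CPM at E14.5 against 105 and 111 CPM at E12.5 (1.48 ± 0.25). Stag1 and Stag2, somatic counterparts of STAG3, changed by 0.18 and 0.31 and were not called. The counts of this list shrank to 1 rise and 2 falls without replicate 2 of E12.5 or without replicate 1 of E14.5, and to 2 falls without replicate 2 of E14.5.

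Germline genes with methylation-sensitive promoters formed another rising group. Of 29 tested, 22 rose and 1 fell (2 without the filter or with the 4 libraries alone), with a median change of 2.25, and some of the rises, such as Sycp1, Sycp3, Hormad1 and Syce1, belonged to the meiotic lists too. Tex101, a germ cell surface protein, had 1810.5 and 1622 CPM at E14.5 against 49.2 and 26.8 CPM at E12.5 (5.50 ± 0.64, adjusted p = 2.1e-05). Taf7l, a germ cell relative of a general transcription factor, had 586 and 467 CPM at E14.5 against 6.60 and 2.68 CPM at E12.5 (6.83 ± 0.61). Slc25a31, a mitochondrial ADP/ATP carrier of germ cells, had 1216 and 949 CPM at E14.5 against 185 and 92.3 CPM at E12.5 (2.97 ± 0.40). The libraries of the stages did not overlap for any of these. The 1 member that fell, Zfp42, is also a pluripotency marker, with 42.1 and 61.6 CPM at E14.5 against 152 and 174 CPM at E12.5 (-1.65 ± 0.23).

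In the piRNA and transposon defence list, whose members silence mobile elements, 9 of 24 tested genes rose and 2 fell, with a median of 0.85. The rises numbered 14 without the filter on low counts and 14 with the 4 libraries fitted alone. Mael, a nuage protein needed to keep transposons silent, had 576 and 447 CPM at E14.5 against 88.2 and 39.4 CPM at E12.5 (3.00 ± 0.65, adjusted p = 0.0028). Tdrd7, a Tudor domain protein, rose by 2.25, and Rnf17, a Tudor and RING protein, by 1.26. Morc1, required for transposon silencing in male germ cells, went the other way, with 10.9 and 13.8 CPM at E14.5 against 52.0 and 56.7 CPM at E12.5 (-2.15 ± 0.42, adjusted p = 0.0014). Piwil2, a PIWI protein present in fetal germ cells of both sexes, had 256 and 277 CPM at E14.5 against 165 and 163 CPM at E12.5 and was not called (adjusted p = 0.17), though it was with the 4 libraries alone (0.022) and without the filter (0.0095).

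Pluripotency genes, which PGCs share with embryonic stem cells, fell almost together. Of 25 tested, 20 fell and 0 rose, with a median change of -2.40, or -2.09 with genes at 0 in a stage set to 3 counts. Pou5f1 had 27.7 and 34.0 CPM at E14.5 against 114 and 98.6 CPM at E12.5 (-1.79 ± 0.29, adjusted p = 3.4e-04). The reporter used for sorting is driven by sequences of this gene, and whether germ cells with less reporter were left out of the sort at E14.5 was not tested. Nanog had 4.93 and 16.1 CPM at E14.5 against 144 and 106 CPM at E12.5 (-3.62 ± 0.42, adjusted p = 2.1e-05), and its partner Sox2 had 10.52 and 17.9 CPM at E14.5 against 43.5 and 64.2 CPM at E12.5 (-1.93 ± 0.31). Nanog thus fell further than Pou5f1 on the log2 scale, and the 2 E14.5 libraries differed from each other in how far. Sox15 and Tdgf1 were among the deepest falls. Sox15, a SOX factor of PGCs, had 1.36 and 2.65 CPM at E14.5 against 32.8 and 38.1 CPM at E12.5 (-4.20 ± 0.36), and Tdgf1, the NODAL co-receptor, had 0.201 and 0 CPM at E14.5 against 11.4 and 6.57 CPM at E12.5. Sall4, a zinc finger factor of pluripotent and germ cells, kept a substantial level at 222 and 285 CPM at E14.5 against 846 and 1285 CPM at E12.5 (-2.07 ± 0.22). Tfcp2l1, a transcription factor of naive pluripotency, had 44.5 and 33.1 CPM at E14.5 against 39.2 and 35.4 CPM at E12.5 and was not called.

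Genes of early germ cell identity fell in 10 of 16 tested members, with 0 rises and a median of -1.66. Prdm14, a factor that specifies PGCs, had 5.94 and 4.56 CPM at E14.5 against 60.1 and 68.5 CPM at E12.5 (-3.60 ± 0.43, adjusted p = 2.5e-05). Prdm1 and Tfap2c, the other members of the PGC specification trio, fell too, with changes of -2.11 and -2.68. The stages did not overlap for any of the trio. Dppa3, also called Stella, had 484 and 891 CPM at E14.5 against 2363 and 3543 CPM at E12.5 (-2.10 ± 0.27, adjusted p = 3.8e-05), and the RNA-binding protein gene Nanos3 had 2.97 and 6.36 CPM at E14.5 against 22.0 and 30.5 CPM at E12.5 (-2.53 ± 0.35). Cxcr4, the receptor that guides PGC migration, had 0.755 and 1.59 CPM at E14.5 against 10.6 and 10.6 CPM at E12.5 (-3.21 ± 0.49). Kit, the receptor for the germ cell survival signal, fell by 1.47, with 192 and 229 CPM at E14.5 against 512 and 650.0 CPM at E12.5, and lost its call without replicate 2 of E12.5 (adjusted p = 0.066) or replicate 1 of E14.5 (0.098). Alpl, the alkaline phosphatase long used to stain PGCs, had 184 and 241 CPM at E14.5 against 327 and 220.0 CPM at E12.5 and was not called.

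**Figure D2:**
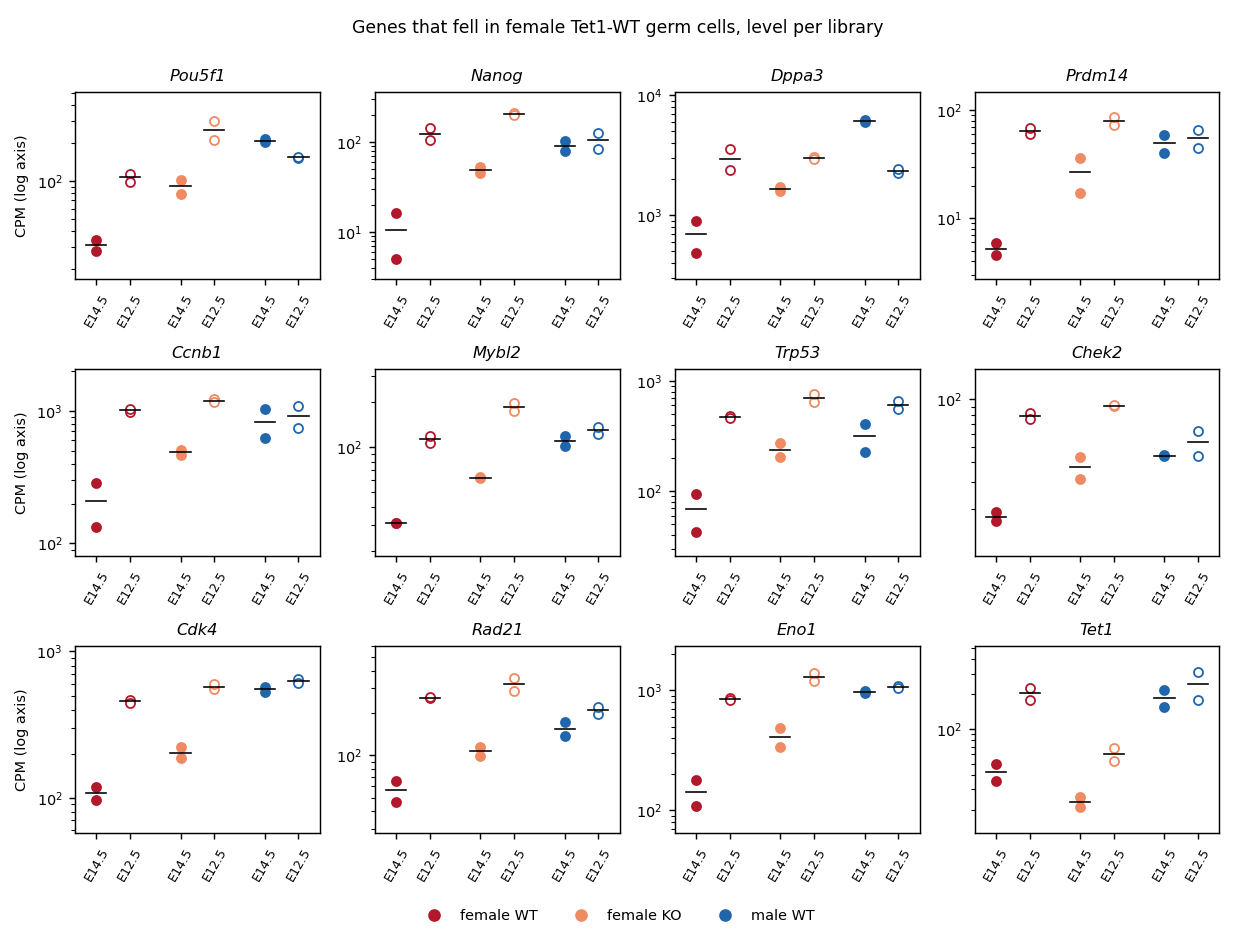
Level of 12 genes that fell in female WT germ cells, in each library, in CPM on a log axis that differs between panels; filled points are E14.5, open points E12.5, and black lines group means. In female WT germ cells every E14.5 library stands below every E12.5 library, as for Prdm14 with 5.94 and 4.56 CPM at E14.5 and 60.1 and 68.5 CPM at E12.5, while in male WT germ cells Dppa3 stood higher at E14.5, with 5955 and 6287 CPM against 2263 and 2421 CPM at E12.5.

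In the list of the later oocyte programme, 2 of 16 tested genes rose and 2 fell, with a median of 0.15, shares near those over all genes tested. Figla, the transcription factor that starts primordial follicle formation, had 109 and 97.1 CPM at E14.5 against 1.53 and 0.736 CPM at E12.5 (6.50 ± 1.04, adjusted p = 2.8e-04). Nobox, which acts after it, had 1.01 and 2.01 CPM at E14.5 against 0.412 and 1.68 CPM at E12.5 and was not called. The zona pellucida gene Zp3 and the growth factor gene Gdf9 were near 0 at both stages, with 1.01 and 0 CPM and 0 and 0.318 CPM at E14.5 against 0.236 and 0.210 CPM and 0.707 and 1.79 CPM at E12.5. Taf4b, a TFIID subunit of ovarian germ cells, was the other rise, and was lost without replicate 1 of E14.5, at 107 and 71.9 CPM at E14.5 against 19.7 and 27.9 CPM at E12.5, with adjusted p = 0.052 in that fit. The falls, of Kit and Jag1, a NOTCH ligand, numbered 0 without replicate 2 of E12.5 or without replicate 1 of E14.5, and 1 without replicate 2 of E14.5, under the replicate block or with the 4 libraries alone, against 4 without the filter on low counts. Jag1 missed the threshold under the block (adjusted p = 0.051) and with the 4 libraries alone (0.059).

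Of the signals that start meiosis, retinoic acid had a list of genes that make, carry, sense or break it down. In that list 4 of 18 tested members fell (22.2%, against 14% of all genes tested) and 0 rose (1 with the 4 libraries alone). Aldh1a2, the enzyme that makes retinoic acid, had 3.62 and 1.17 CPM at E14.5 against 46.1 and 30.3 CPM at E12.5 (-3.90 ± 0.77). Stra6, which takes up retinol, fell with a change of -3.56, and Dhrs3, a retinaldehyde reductase, with a change of -4.84. Aldh1a2 is a marker of somatic cells of the gonad and mesonephros as well, and these falls moved with the summed mesenchyme markers given above, and their part in the result was not tested. The retinoic acid receptor Rara had 3.37 and 4.66 CPM at E14.5 against 9.13 and 3.05 CPM at E12.5 and was not called. In the BMP and WNT response list, 1 of 26 tested genes rose and 3 fell, with a median of 0.02, and the falls numbered 1 with any 1 of the 4 libraries left out, while the rises were 2 without replicate 1 and 0 without replicate 2 of E12.5. With all 4 libraries kept, the rises were 3 under DESeq2, the replicate block or the 4 libraries alone and 4 without the filter, and the falls 5 under DESeq2. In the main fit the shares of this list, 3.85% higher and 11.5% lower, were below the 11.3% and 14% over all genes tested. Id1 and Id3, targets of BMP signalling, changed by 1.06 and 0.64 and were not called. Both were called without replicate 1 of E12.5 (2.20 and 1.27, adjusted p = 2.6e-04 and 0.0039), under the replicate block (0.019 and 0.019) and without the filter (3.3e-04 and 0.0063), and Id1 under DESeq2 (0.021). Id2, another BMP target, fell by 1.18, and leaving out a single library, whichever it was, took the adjusted p to between 0.061 and 0.15.

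Cell cycle genes moved in both directions. Of 16 G1 cyclins, kinases and inhibitors tested, 2 rose and 7 fell. Ccne2, an S phase cyclin, had 519.9 and 376 CPM at E14.5 against 45.4 and 45.2 CPM at E12.5 (3.31 ± 0.42, adjusted p = 4.0e-05). Cdk4, the kinase of the D cyclins, had 95.9 and 119 CPM at E14.5 against 467 and 445 CPM at E12.5 (-2.09 ± 0.15), and Cdk6 had 4.48 and 5.83 CPM at E14.5 against 26.4 and 83.2 CPM at E12.5 (-3.43 ± 0.45). Both kinases were lower in both E14.5 libraries. The D cyclins Ccnd2 and Ccnd3 fell, with changes of -3.31 and -1.30. Ccnd1, the third D cyclin, rose by 1.95 but lost its call without replicate 2 of E12.5 (adjusted p = 0.17) or replicate 1 of E14.5 (0.086), and the rises of this list then numbered 1, against 4 without replicate 1 of E12.5.

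Of 33 genes of mitotic division tested, 17 fell and 2 rose, with a median of -0.61. Ccnb1, the mitotic cyclin, had 134 and 284 CPM at E14.5 against 987 and 1026 CPM at E12.5 (-2.27 ± 0.30, adjusted p = 6.2e-05). Aurkb, a kinase of chromosome segregation, had 12.48 and 21.8 CPM at E14.5 against 81.9 and 73.4 CPM at E12.5 (-2.19 ± 0.28), and Mybl2, a regulator of mitotic genes, had 31.1 and 31.2 CPM at E14.5 against 107 and 119.6 CPM at E12.5 (-1.87 ± 0.21). The same pattern did not hold for the usual marker of proliferation. Mki67 had 176 and 144 CPM at E14.5 against 238 and 217 CPM at E12.5 and was not called (adjusted p = 0.29). Bub1, a spindle checkpoint kinase, rose, with 930.5 and 666 CPM at E14.5 against 329 and 289 CPM at E12.5 (1.37 ± 0.16), and remained called with each single library left out. The falls numbered 11 without replicate 1 of E14.5, and the second rise, Top2a, a topoisomerase, passed neither in the fits with a library left out (adjusted p between 0.076 and 0.25) nor with the 4 libraries alone (0.058).

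DNA replication genes were mixed, with 5 rises (15.6%) and 10 falls (31.25%) among 32 tested and a median of -0.30. Over all genes tested the shares were 11.3% and 14%. Mcm7, a subunit of the replicative helicase, had 131 and 194 CPM at E14.5 against 416 and 456 CPM at E12.5 (-1.43 ± 0.25), and Tyms, which makes thymidylate, had 98.8 and 109 CPM at E14.5 against 328 and 516 CPM at E12.5 (-2.03 ± 0.24). Orc1, a subunit of the origin recognition complex, was higher, with 219.6 and 212 CPM at E14.5 against 99.3 and 58.0 CPM at E12.5 (1.46 ± 0.26). Gins3 and Lig1, a helicase cofactor and a DNA ligase, rose by 2.36 and 0.91. Pcna, the clamp of the replication fork, had 392 and 388 CPM at E14.5 against 458 and 486 CPM at E12.5 and was not called. Without replicate 1 of E14.5 the falls of this list numbered 3.

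Genes that write, read or remove DNA methylation fell in 7 of 19 tested members and rose in 1. Tet1, whose loss the series studies, had 35.2 and 49.2 CPM at E14.5 against 179 and 226 CPM at E12.5 in these wild-type cells (-2.27 ± 0.38, adjusted p = 3.9e-04). Dnmt3a, a de novo methyltransferase, had 26.2 and 36.6 CPM at E14.5 against 97.2 and 125 CPM at E12.5 (-1.83 ± 0.39). The stages did not overlap for either gene. Dnmt1, the maintenance methyltransferase, had 421 and 365 CPM at E14.5 against 293 and 297 CPM at E12.5 and was not called (adjusted p = 0.29). Its targeting factor Uhrf1 was the 1 rise (1.00 ± 0.29), but missed the threshold in each fit with a library left out (adjusted p between 0.056 and 0.14). The falls numbered 4 without replicate 2 of E12.5 and 2 without replicate 1 of E14.5. Another list held genes of the Polycomb complexes PRC1.6, which represses germline genes in other cells, and PRC2, with some histone H3 lysine 9 methyltransferases. Of its 23 tested genes 4 rose (17.4%) and 6 fell (26.1%), against 11.3% and 14% of all genes tested. Setdb1, a histone H3 lysine 9 methyltransferase, had 537 and 471 CPM at E14.5 against 159 and 129 CPM at E12.5 (1.81 ± 0.23, adjusted p = 3.4e-05). Mga, the scaffold of PRC1.6, rose by 0.85, while Mtf2, a PRC2 cofactor, fell by 1.11. The rises of this list numbered 2 without replicate 1 of E12.5 and 2 without either E14.5 library.

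Kinases that sense DNA damage rose, while Trp53 and the checkpoint kinase gene Chek2 fell. Of 26 genes of apoptosis and checkpoints tested, 4 rose (15.4%) and 9 fell (34.6%), with a median of -0.65, against 11.3% and 14% of all genes tested. Atr, the kinase that senses single-stranded DNA and also acts on unpaired meiotic chromosomes, had 609 and 509 CPM at E14.5 against 119.9 and 98.9 CPM at E12.5 (2.35 ± 0.21, adjusted p = 3.5e-06). Atm, the kinase that senses DNA breaks, had 242 and 168 CPM at E14.5 against 75.1 and 51.8 CPM at E12.5 (1.69 ± 0.34). Both stood higher in both E14.5 libraries. Trp53, the gene of p53, had 42.9 and 93.4 CPM at E14.5 against 482 and 460.0 CPM at E12.5 (-2.80 ± 0.32, adjusted p = 1.6e-05), and the kinase Chek2 had 19.13 and 16.9 CPM at E14.5 against 82.2 and 75.5 CPM at E12.5 (-2.13 ± 0.23). Bax, a pore-forming protein of apoptosis, had 69.3 and 70.9 CPM at E14.5 against 134 and 146 CPM at E12.5 (-0.997 ± 0.20). The falls numbered 5 without replicate 2 of E12.5 and 4 without replicate 1 of E14.5, and the rises 2 without replicate 1 of E12.5.

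Glycolysis genes fell in 15 of 24 tested members and rose in 0, with a median of -1.55. Eno1, the enolase, had 109 and 178 CPM at E14.5 against 869 and 824 CPM at E12.5 (-2.57 ± 0.22, adjusted p = 2.1e-06). Pgam1, the mutase before it in the pathway, had 20.2 and 26.5 CPM at E14.5 against 136 and 119.7 CPM at E12.5 (-2.46 ± 0.21), and Aldoa, an aldolase, had 343 and 497 CPM at E14.5 against 1332 and 1525 CPM at E12.5 (-1.77 ± 0.21). The stages did not overlap for any of them. Hk2, Pfkl and Pkm, which catalyse irreversible steps, fell with changes of -2.20, -2.50 and -1.29, whereas the glucose transporter Slc2a1 changed by -0.23 and Gpi1, an isomerase, by -0.18, both not called.

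Several lists that fell also hold genes of the cells around germ cells. The mesenchyme list fell in 16 of 18 tested members, with a median of -4.38 (-3.93 with genes at 0 in a stage set to 3 counts), and in 10 without replicate 2 of E14.5. Its collagen gene Col3a1 had 1.96 and 6.36 CPM at E14.5 against 116 and 115 CPM at E12.5, and the receptor gene Pdgfra had 3.32 and 4.77 CPM at E14.5 against 50.6 and 120.4 CPM at E12.5. Gonadal ridge markers fell in 8 of 10 (5 without replicate 1 of E14.5), among them Wt1, a factor of the coelomic epithelium, with 0.856 and 0.318 CPM at E14.5 against 16.5 and 41.5 CPM at E12.5. Their sums were 21.2 and 23.7 CPM at E14.5 against 159 and 154 CPM at E12.5. The other lists of neighbouring cells had fewer calls. Falls numbered 3 of 14 for ovarian supporting cells, 1 of 9 for testis supporting cells, 0 of 8 for steroidogenic cells, 3 of 14 for endothelium and blood, 1 of 11 for erythroid cells and 4 of 13 for epithelium, with 0 rises in each. The shares that fell ran from 0% to 30.8%, against 14% of all genes tested. Those of testis supporting, steroidogenic and erythroid cells were below 14%. The sums were 23.5 and 15.4 CPM at E14.5 against 96.3 and 98.3 CPM at E12.5 for ovarian supporting cells, and 66.7 and 77.6 CPM at E14.5 against 315 and 448 CPM at E12.5 for endothelium and blood. They were 74.1 and 110.0 CPM at E14.5 against 243 and 216 CPM at E12.5 for epithelium, 30.5 and 87.5 CPM at E14.5 against 174 and 88.3 CPM at E12.5 for erythroid cells, and 10.02 and 2.33 CPM at E14.5 against 12.73 and 12.67 CPM at E12.5 for testis supporting cells. Steroidogenic cells went the other way, with 32.5 and 24.2 CPM at E14.5 against 19.15 and 13.20 CPM at E12.5. Sums did not overlap between the stages for any of these lists, but those for erythroid cells nearly met, at 87.5 CPM against 88.3 CPM. The falls in endothelium and blood numbered 1 without replicate 1 of E14.5, those in epithelium 2 without replicate 2 of E12.5 or replicate 1 of E14.5, and those in erythroid cells 0 without any 1 of the 4 libraries or under the replicate block. Without the filter the falls were 6 in ovarian supporting cells, 5 in endothelium and blood and 4 in erythroid cells, with the 4 libraries alone 5 in ovarian supporting and 3 in erythroid cells, and under DESeq2 2 in erythroid cells, with 1 rise in testis supporting cells. Imprinted genes, expressed from 1 parental copy, fell in 18 of 41 and rose in 1 (2 without replicate 1 of E12.5, and 3 under DESeq2, with RLE size factors or with the 4 libraries alone). Among them H19 had 11.4 and 12.51 CPM at E14.5 against 125 and 109 CPM at E12.5 (-3.29 ± 0.34), and Peg3 had 150.5 and 114 CPM at E14.5 against 729 and 639 CPM at E12.5 (-2.37 ± 0.25). Immediate early and stress genes fell in 8 of 20, among them Egr1 with 0.906 and 0.742 CPM at E14.5 against 17.97 and 20.9 CPM at E12.5, and in 4 without replicate 1 of E14.5 and 5 without replicate 2 of E14.5. The part of neighbouring cells in these falls was not tested.

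**Figure D3:**
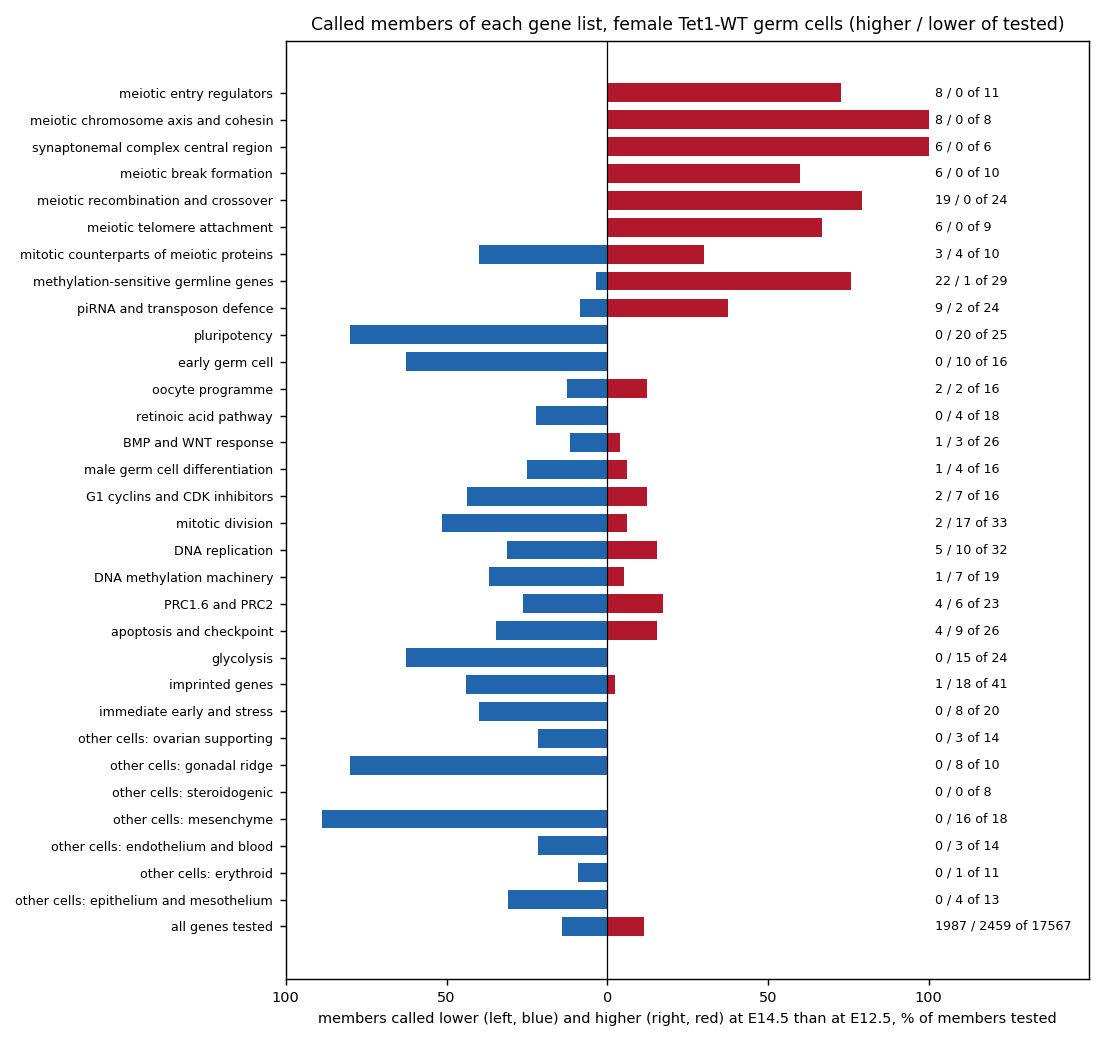
Share of tested members of each gene list called higher (red, to the right) or lower (blue, to the left) at E14.5 than at E12.5 in female WT germ cells, in percent, with the numbers higher and lower of those tested at the right. The meiotic lists hold rises and no falls, the pluripotency, early germ cell and glycolysis lists hold falls and no rises, and the bottom bar gives all genes tested, 11.3% higher and 14% lower.

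In female Tet1-KO germ cells the mesenchyme markers differed less between the stages, summing to 88.5 and 103 CPM at E14.5, against 157.5 and 166 CPM at E12.5. Over all genes tested, 4.02% were called higher and 7.02% lower in female Tet1-KO between the stages. Of the 56 meiotic prophase genes, 30 were called higher and 1 lower in female Tet1-KO, with a median change of 1.89, against 44 higher and 0 lower in female Tet1-WT. Stra8 had 427 and 346 CPM at E14.5 against 4.02 and 0.987 CPM at E12.5 in female Tet1-KO, and Sycp3 had 492 and 293 CPM at E14.5 against 39.8 and 37.6 CPM at E12.5. Pluripotency genes fell in 15 of 25 and rose in 0 there, with a median of -1.49, and glycolysis genes fell in 10 of 24. Imprinted genes fell in 3 of 41, with a median of -0.06, against 18 of 41 in female Tet1-WT. The difference between the Tet1-WT change and the Tet1-KO change was called for 99 genes higher in Tet1-WT (0.564%) and 130 lower (0.74%), and for 0 of the 56 meiotic genes. That total of 229 moved widely with single libraries. It was 0 without replicate 1 of E14.5 Tet1-WT, 148 without replicate 2 of E14.5, 503 without replicate 1 of E12.5 and 20 without replicate 2 of E12.5. A difference that was not called does not show that the genotypes changed alike.

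In male Tet1-WT germ cells the mesenchyme sums also differed widely between the stages, with 50.3 and 39.2 CPM at E14.5 against 2084 and 1328 CPM at E12.5. In males 4.92% of genes were called higher and 7.75% lower. The change in females minus that in males was called for 1028 genes as higher (5.85%) and 1100 as lower (6.26%), 2128 in all, or 995 without replicate 1 of E14.5 and between 1532 and 1920 without any other of the 4 libraries. Of the 56 meiotic prophase genes, 21 were called as higher in the female change and 0 as lower, and 18 rose in males, with a male median of 0.82. Stra8 had 1.66 and 1.40 CPM at E14.5 against 0.726 and 0 CPM at E12.5 in males, and the difference in change from females, 3.11 ± 1.44, was not called (adjusted p = 0.19). For its partner Gm4969, with 1.72 and 1.12 CPM at E14.5 against 2.66 and 1.504 CPM at E12.5 in males, the difference was 6.71 ± 0.82 (adjusted p = 2.1e-04). Neither gene reached in males at E14.5 the level of any female library of that stage. Sycp3 had 108 and 156 CPM at E14.5 against 37.9 and 38.5 CPM at E12.5 in males, and the female change exceeded the male change by 2.49 ± 0.33 (adjusted p = 2.7e-04). Meioc stayed low in males, with 1.54 and 1.44 CPM at E14.5 against 1.63 and 0.815 CPM at E12.5 (difference 4.86 ± 1.23, adjusted p = 0.017). Dmc1 had 5.47 and 10.8 CPM at E14.5 against 9.68 and 6.08 CPM at E12.5 in males (difference 3.57 ± 1.12, adjusted p = 0.0499). These male values at E14.5 stood below both female libraries of that stage. Mael rose in both sexes, by 3.00 in females and 3.26 in males, and the difference was not called (adjusted p = 0.93).

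Pluripotency genes showed the opposite contrast. The female change was called lower than the male change for 18 of 25 members and higher for 0, and 2 members rose and 2 fell in males. Pou5f1 had 202 and 213 CPM at E14.5 against 153 and 154 CPM at E12.5 in males (female minus male -2.22 ± 0.41, adjusted p = 0.0023). Some genes were called in opposite directions in females and males with a called difference, 172 in all, of which 65 rose and 107 fell in females. Dppa3 was among them, with 5955 and 6287 CPM at E14.5 against 2263 and 2421 CPM at E12.5 in males, and so were Nanos3, which changed by 1.63 in males, and Morc1, by 2.26. In the piRNA list the female change was called lower than the male one for 5 of 24 genes and higher for 0. Genes of male germ cell differentiation fell in 4 of 16 and rose in 1 in females, against 7 rises and 1 fall in males. Without the filter on low counts the list had 8 falls and 3 rises in females, and 2 rises under DESeq2 or with the 4 libraries alone. Nanos2, the RNA-binding protein that directs the male fate, was at or near 0 in females, with 0.352 and 0.848 CPM at E14.5 against 0 CPM at E12.5, and had 69.3 and 125 CPM at E14.5 against 0 and 0.376 CPM at E12.5 in males. Dnmt3l, a cofactor of de novo methylation in male germ cells, had 0 CPM at E14.5 against 0 and 0.789 CPM at E12.5 in females, and 8.26 and 27.0 CPM at E14.5 against 0 CPM at E12.5 in males. The 1 female rise, of the PIWI gene Piwil4, was lost without replicate 1 or replicate 2 of E12.5 (adjusted p = 0.10 and 0.13) or without replicate 1 of E14.5 (0.11), and the rises of this list then numbered 2, 0 and 0. The BMP target Id1, not called in females, fell in males, with 3.86 and 3.64 CPM at E14.5 against 58.8 and 29.8 CPM at E12.5 (difference 4.63 ± 0.60, adjusted p = 2.4e-04). Id3, Id2 and Gata2, other targets or partners of BMP signalling, had differences of 3.06, 3.45 and 3.68, called as well. Over the whole BMP and WNT list the female change was called higher than the male one for 8 of 26 genes and lower for 2, Zglp1 and the WNT effector Tcf7.

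**Figure D4:**
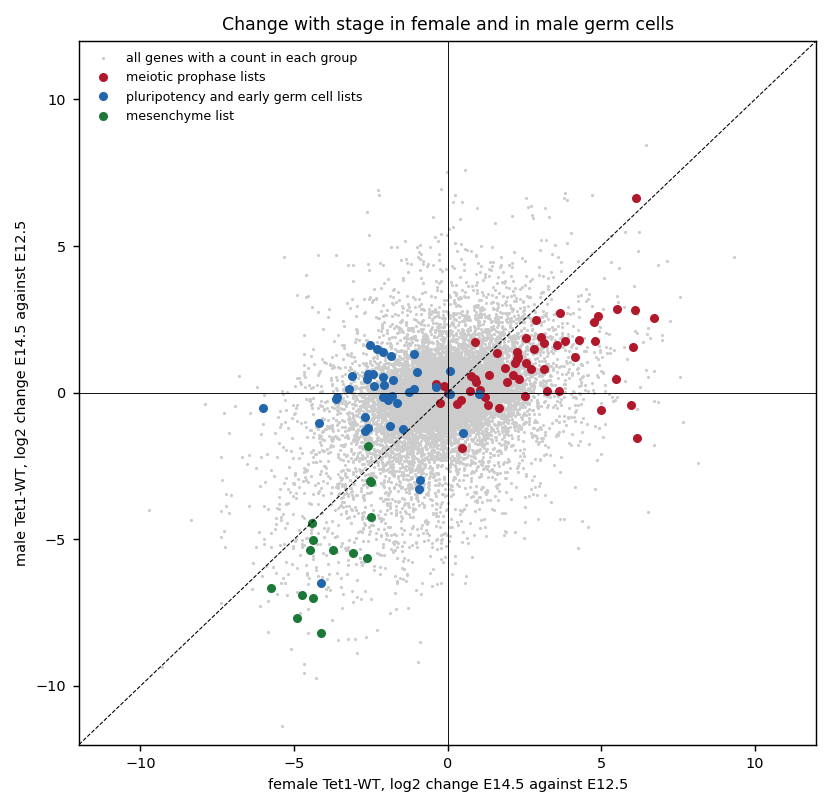
Log2 change from E12.5 to E14.5 of each gene with a count in every group (15249 of 17567 tested), in female WT germ cells on the horizontal axis and in male WT germ cells on the vertical axis; the dashed line marks equal change. Meiotic prophase genes lie to the right and mostly below the line, pluripotency and early germ cell genes to the left and mostly above it, and mesenchyme markers low in both sexes.

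A larger share of genes was called higher on the X than on any autosome. Of 725 X-linked genes tested, 129 were called higher (17.8%) and 100 lower (13.8%), with a median of 0.22. On the 19 autosomes 11.4% were called higher and 14.4% lower, the median was -0.08, and the medians of single autosomes ran between -0.34 and 0. The share called higher ran between 8.51% and 13.4% over the autosomes. Xist, whose RNA coats and silences the inactive X in female somatic cells, had 0.302 and 1.06 CPM at E14.5 against 19.97 and 30.3 CPM at E12.5 (-5.33 ± 0.98, adjusted p = 9.8e-04). In female Tet1-KO the sum of Xist and the Y-linked genes was 0.33 and 0 CPM at E14.5 against 2.36 and 2.61 CPM at E12.5. The mesenchyme sums at E12.5 were lower there too, at 157.5 and 166 CPM against 966 and 1235 CPM in female Tet1-WT. The part of neighbouring cells in the Xist fall was not tested. X-linked Tex11, a crossover gene, rose, with 814 and 618 CPM at E14.5 against 71.6 and 91.9 CPM at E12.5 and adjusted p = 0.056 without replicate 1 of E12.5, and X-linked Taf7l, given above, rose more steeply still. In male Tet1-WT germ cells the median change of X-linked genes was 0, and in female Tet1-KO it was 0.20. No test of the chromosome as a whole was made.

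**Figure D5:**
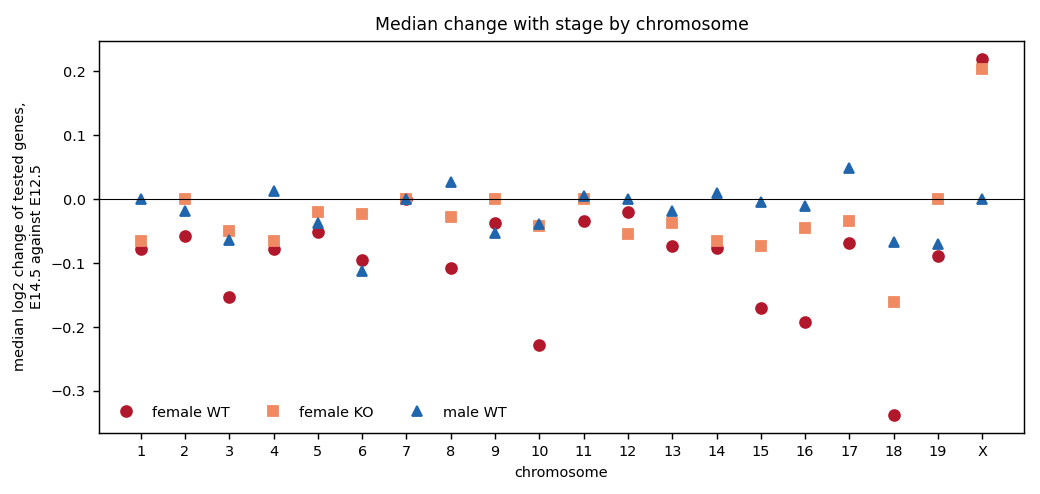
Median log2 change from E12.5 to E14.5 of the tested genes on each chromosome, in female WT (red circles), female KO (orange squares) and male WT germ cells (blue triangles). In both female genotypes the X chromosome has the highest median, 0.22 in WT and 0.20 in KO, and in males it lies at 0.

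The largest changes of the whole comparison, by fold among genes whose libraries did not overlap, included further genes of germ cells and meiosis. Rad51ap2, a gene of meiotic cells, had 74.2 and 53.4 CPM at E14.5 and 0 counts in both E12.5 libraries, at least 382-fold higher when each E12.5 library is set to 3 counts. Dpep3, a membrane dipeptidase of germ cells, had 19.7 and 16.3 CPM at E14.5 and 0 at E12.5, at least 108-fold higher. Dmrtc2, a DM domain factor of meiotic cells, had 324 and 236 CPM at E14.5 against 3.36 and 0.368 CPM at E12.5 (7.25 ± 0.81, adjusted p = 2.9e-05). Both E14.5 libraries of each stood above the E12.5 pair, which the choice of genes without overlap required. The largest falls included genes of connective tissue. Prrx1, a mesenchyme homeobox gene, had 0 counts in both E14.5 libraries against 7.07 and 7.05 CPM at E12.5, at least 30.1-fold lower, and Frem1, of the extracellular matrix, had 0 at E14.5 against 12.3 and 11.7 CPM at E12.5, at least 51.2-fold lower. Fat4, an atypical cadherin, had 0 CPM at E14.5 against 5.77 and 12.3 CPM at E12.5 (adjusted p = 0.0013), and among the rises Tppp, which promotes assembly of microtubules, had 78.2 and 55.5 CPM at E14.5 against 1.06 and 0 CPM at E12.5 (adjusted p = 0.0026).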

How the data were processed

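RNA of sorted germ cells was amplified from polyadenylated transcripts with the SMARTer Ultra Low Input kit and sequenced on an Illumina HiSeq instrument, per the labels' protocols. The authors deposited whole-number read counts per gene and library. Trimmomatic, Bowtie 0.12.8, TopHat2 2.0.2, HTSeq 0.5.3p9 and the mouse build mm9 are named in the submitters' processing notes. Whether counting used the strand, and how reads that fit several copies of a gene were treated, is not given in the sources used here. The table held 37991 genes, of which 32919 were given a symbol by their identifiers, and 0 columns lacked a library. The pairs of E14.5 and E12.5 Tet1-KO columns share a header, so their replicate numbers are not told.

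The counts of the 20 libraries of the Tet1 cross, in 10 groups of 2, were fitted together with edgeR 4.0.16 in R 4.3.3 (robust quasi-likelihood, TMM scaling, filterByExpr at 10 counts, 10 residual degrees of freedom). Adjusted p-values are Benjamini-Hochberg values over all 17567 genes tested, two-sided, with the threshold at 0.05. Values in CPM use TMM library sizes. The changes in female Tet1-WT and in male Tet1-WT, or female Tet1-KO, were compared by an interaction contrast over libraries that none of them share. A fold against a group at 0 was computed from 3 counts per library and covers counting error only. Replicate libraries of a group differed by more than sampling noise in a chi-square test of their counts. The fit was tested on simulated counts in which 50 genes with at least 5 CPM at E12.5 changed at each size, and no other gene did. It called 18% of 2-fold rises and 30% of 2-fold falls, and 74% of 4-fold rises and 72% of 4-fold falls. Far fewer genes changed in the simulation than were called in the data, so these shares need not hold for the data. A gene that was not called can still have changed by 2-fold.

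The members and the 33 gene lists (609 entries, 9 without a match) were chosen with earlier results of these data known. Named genes are a fixed set of genes, up to 6 called members of each list with the smallest p, the 15 largest called rises and falls, and the 8 largest called differences from males in each direction, with groups that do not overlap and at least 5 CPM. Genes given as exceptions or contrasts (among them Meiob, Tex11, Zfp42, Hk2, Pfkl, Pkm, Id1, Id3 and Gata2, and list members that were not called) were chosen after their values were seen. Alternatives were DESeq2 1.42.0, other size factors, no filter, a replicate block, a mesenchyme covariate, the 4 libraries alone, and each library left out. Results for some genes are not reported here. Figures were drawn with matplotlib 3.10.9 in Python 3.11.15.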

Additional observations from a re-analysis of the deposited data

Results flagged for a closer look

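The change with stage differed between female and male Tet1-WT germ cells for 2128 genes, by edgeR's test of the difference itself with 2 libraries a group. It differed between female Tet1-WT and female Tet1-KO for 229 genes. Among genes named above that were called in opposite directions in the sexes, the female change minus the male change on the log2 scale was -3.49 for Dppa3, -4.16 for Nanos3, -4.41 for Morc1 and 1.40 for Top2a. Among those of antigen presentation and interferon response it was -3.46 for Tapbp, -2.24 for Irf1 and -5.33 for Irgm1. Among the largest called differences reported here, without genes at 0 in a whole group, it was 10.54 for Tspear, -9.94 for Xist, -8.33 for Afp, -6.74 for Pmaip1, -6.62 for Mep1b and -5.83 for Trpv4. Tspear had 22.8 and 13.04 CPM in the female E14.5 libraries, against 0.118 and 0 CPM in the female E12.5 libraries. The female change of Tspear was 8.13, or 7.13 and not called without replicate 2 of E12.5. Xist was near 0 in males, with group means of 0.0627 CPM at E12.5 and 1.698 CPM at E14.5. That male change of 4.61 was part of the Xist difference. Pmaip1, a p53 target that promotes apoptosis, had 0 and 1.17 CPM in the female E14.5 libraries, against 2.59 and 9.46 CPM in the female E12.5 libraries, and its female fall was lost without replicate 2 of E12.5 (adjusted p = 0.27) or replicate 1 of E14.5 (0.31), under DESeq2 (0.10) and with the 4 libraries alone (0.092). Groups of 2 libraries were too small to look for a library far from the others.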

How the results depend on the processing

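The 4446 calls between the stages in female Tet1-WT germ cells came to 5455 with DESeq2, 4435 with other size factors (RLE), 4994 without the filter on low counts, 5066 with the 4 libraries fitted alone, and 2448 to 3775 with single libraries left out. The 2128 differences from males came to 3159 with DESeq2, 2851 without the filter and 995 to 1920 with single libraries left out. The 229 differences between genotypes came to 946 with DESeq2, 864 without the filter and 0 to 503 with single libraries left out. With a replicate block the 3 counts were 4440, 2131 and 213. Libraries with the same number did not deviate together (r = 0.01 between E14.5 and E12.5 female Tet1-WT), so the numbers pair nothing.

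With the summed mesenchyme level as a covariate the 3 counts were 0, 1338 and 0. That level differed by -4.23 (log2) between the stages and by a median of 0.32 between replicates, so stage and covariate could barely be separated. Under it the log2 change turned to -2.54 for Stra8, -5.94 for Rec8, -1.68 for Hormad1, -2.09 for Dmc1, -4.33 for Tex11, -3.51 for Majin, -0.82 for Taf4b, -5.87 for Mael, -0.31 for Rnf17, -0.11 for Piwil4, -0.74 for Slc25a31, -1.13 for Tex101, -1.08 for Orc1, -6.06 for Tspear and -6.26 for Tppp, and to 1.74 for Ccnd2, 5.94 for Dhrs3, 1.66 for Stra6, 1.02 for Dnmt3a, 2.51 for Id2, 0.79 for Jag1, 0.36 for Pdgfra and 1.68 for Wt1, none of them called. The cause of the other shifts was not tested. Over 2 libraries a group, with the second E14.5 library the shallowest, changes of low genes were the least certain.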

Other observations

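Some single genes of antigen presentation and of the response to interferon were called, and no list of them was tested. Apart from H2-D1, which the naming rule gave among the largest rises, and Iigp1, among the largest falls, they were chosen after their values were seen. H2-D1, a classical MHC class I heavy chain, had 338 and 279.5 CPM in the E14.5 libraries, against 2.42 and 0.894 CPM in the E12.5 libraries (7.55 ± 0.59 on the log2 scale, SE, adjusted p = 1.6e-06). H2-K1, its near relative, had 419 and 338 CPM at E14.5 against 4.60 and 2.58 CPM at E12.5 (6.72 ± 0.70, adjusted p = 9.0e-06), and how reads that fit both copies were shared is not given in the sources used here. Both genes were low in males, where H2-D1 had 3.03 and 1.48 CPM at E14.5 against 2.00 and 1.07 CPM at E12.5, and both were higher at E14.5 in female Tet1-KO, with 107 and 94.2 CPM of H2-D1 against 1.03 and 1.97 CPM at E12.5. B2m, the light chain that class I molecules need at the cell surface, had 32.0 and 22.0 CPM at E14.5 against 22.9 and 19.3 CPM at E12.5 and was not called (adjusted p = 0.62). Tapbp, which helps load peptide onto class I molecules, fell, with 9.66 and 10.1 CPM at E14.5 against 44.1 and 44.0 CPM at E12.5 (-2.16 ± 0.28, adjusted p = 4.1e-05).

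The heavy chain genes thus rose without a called rise of B2m or Tapbp. Irf1, an interferon response factor, had 25.0 and 33.2 CPM at E14.5 against 87.6 and 56.0 CPM at E12.5 (-1.31 ± 0.21), and Irgm1, a GTPase induced by interferon, had 0.503 and 0.636 CPM at E14.5 against 14.02 and 8.99 CPM at E12.5 (-4.36 ± 0.42, adjusted p = 5.6e-06). Iigp1, of the same GTPase family, had 0 counts in both E14.5 libraries against 17.7 and 20.7 CPM at E12.5, at least 82.0-fold lower.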
